A study of Rattus norvegicus with 2 samples.

Results

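The thin-filament genes described here encode the 4 tropomodulins (Tmod1 to Tmod4), the leiomodins Lmod1 and Lmod2, the Xin actin-binding repeat proteins Xirp1 and Xirp2, and the nebulin-related proteins Nebl (nebulette) and Nrap. They were taken by the gene symbol that the array platform's annotation gives its probes, which yielded 10 genes and 13 probes of 15613 genes and 40012 probes in all. Each gene's probes were averaged on each array. The material was rat heart that had not been cultured, numbered 1 and 2 in the labels and hybridised with Cy3 on 2 Agilent 2-colour arrays. On each array the other channel carried mix1 in Cy5, a pool of bone marrow cells and primary ear fibroblasts, both from rat and both grown in serum-containing medium. The heart samples were untreated, and the series text calls them somatic heart cells. The strain, age and sex of the rats, the part of the heart, the proportions of the pool and whether hearts 1 and 2 came from separate animals are not stated in the labels. The p-values therefore cover no more than the variation of these 2 samples, which could be technical.

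All values below are log2 of heart divided by mix1, given as mean ± SD over n = 2 arrays. The deposited table states neither the log base nor the direction. Base 2 and heart over mix1 were inferred. The direction rests on the markers of the cardiac muscle cell, of which 10 of 10 were positive on both arrays, from 3.85 for Nppa to 7.23 for Mybpc3. Markers of endothelial cells were higher in heart (8 of 8) and markers of fibroblasts lower (8 of 8), beside 31.4% and 41.5% of all genes. The direction read here is likely rather than stated, and it inverts the red over green that Agilent software usually reports. A ratio compares the samples for 1 gene and says nothing of how abundant that gene is beside another. Spot intensities were not used here, so the signal over background behind each ratio is unknown, and the number of arrays limits the precision. Between samples of mixed cells, fewer cells of a type and less RNA per cell cannot be told apart, and tissue and culture differed together between the channels.

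In striated muscle, actin filaments run from the Z-disc, where their barbed ends are anchored, toward the middle of the sarcomere, where their pointed ends lie free. Tropomodulins cap the pointed end together with tropomyosin, and leiomodins, their relatives, nucleate actin and favour longer filaments. Xin-repeat proteins bundle actin at the intercalated disc and other attachment sites, nebulette sits at the cardiac Z-disc, and N-RAP (Nrap) acts as a scaffold in myofibril assembly and at the ends of the muscle cell.

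Of the 10 genes, 8 were higher in heart and 2 lower, and arrays 1 and 2 gave the same sign for all 10. The share of all genes with the same sign on both arrays was not counted here. Over all genes the difference between arrays had an SD of 0.34. All 10 passed limma's moderated test at an adjusted p of 0.05, adjusted over all genes, as did 72.9% of the 15613 genes measured. The share of all genes called higher was 31.4%, and the share called lower was 41.5%. The 8 higher genes all differed by at least 2-fold, and 5 of them by at least 16-fold, against 16.9% and 2.32% of all genes. The median of the 10 means was 4.16, and that of all genes was -0.09. The smallest adjusted p among the 10 was 0.0012 and the largest 0.0483.

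**Figure D1:**
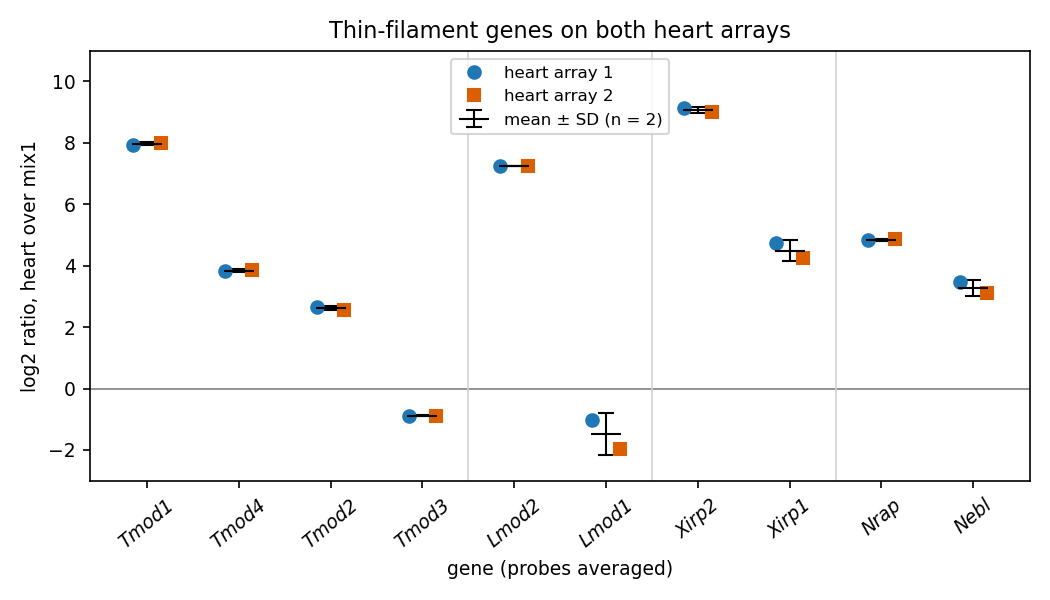
Log2 ratio of heart over mix1 (vertical axis) for each of the 10 genes (horizontal axis, grouped as tropomodulins, leiomodins, Xin-repeat and nebulin-related genes), with array 1 as circles, array 2 as squares, and a bar at the mean with its SD (n = 2). Both arrays lie above 0 for 8 genes and below 0 for Tmod3 and Lmod1, and the widest gap between arrays is that of Lmod1 (-1.01 and -1.96).

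The tropomodulins spanned nearly the whole range of the set. Tmod1, the pointed-end cap of heart muscle and of the red cell membrane skeleton, was at 7.93 on array 1 and 8.01 on array 2. Its mean of 7.97 ± 0.06 corresponds to a 251-fold higher signal in heart (adjusted p = 0.0012), and it ranked number 5 from the top among all genes. Its 2 probes read 8.02 ± 0.10 and 7.92 ± 0.01, a gap that was small beside the ratio itself. Tmod4, the tropomodulin best known from skeletal muscle, was at 3.81 and 3.87. That gave a mean of 3.84 ± 0.04, or 14.3-fold (adjusted p = 0.0012), with the arrays nearly equal. Tmod2, known mainly as the neuronal tropomodulin, was at 2.67 and 2.57, a mean of 2.62 ± 0.07 or 6.15-fold (adjusted p = 0.00135). Tmod3, the form found in most cell types, went the other way.

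Tmod3 was at -0.89 on array 1 and -0.88 on array 2, so that its signal was 1.85-fold lower in heart (-0.88 ± 0.01, adjusted p = 0.00263). Its 2 probes are annotated to the same transcript and both passed the probe-level test, yet they differed in size. The first read -0.60 and -0.59 on arrays 1 and 2 (1.51-fold lower), and the second -1.18 and -1.17 (2.26-fold lower). The gap of -0.58 between the probes (second minus first) was many times the difference between the arrays. Without a dye swap, neither reading of Tmod3 can be told apart from dye bias, which was not measured here.

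The order Tmod1, Tmod4, Tmod2, Tmod3 held on each array. The ratio of Tmod1 exceeded that of Tmod3 by 8.82 and 8.89 on arrays 1 and 2, and that of Tmod4 by 4.12 and 4.14. The gap between Tmod4 and Tmod2, neighbours in the order, was the smallest, at 1.14 and 1.30, and also exceeded the SD of either gene. These differences between ratios are descriptions over 2 arrays and were not tested.

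Markers of the other cells that use these tropomodulins were read beside them. Of all genes, 31.4% were called higher in heart and 41.5% lower. Of 7 measured erythroid genes, 7 were higher in heart, from 0.40 for Gata1 to 5.11 for Hbb, with a median of 2.19 on array 1 and 2.56 on array 2. Their part in the Tmod1 ratio was not tested. Of 9 measured neuronal genes, 0 were higher at the adjusted threshold in limma and 4 were lower, the latter near the share of all genes. Their means lay between -7.17 for Stmn2 and 0.12 for Gap43. At an unadjusted p of 0.05 the count of higher neuronal genes was also 0, and the part of neuronal genes in the Tmod2 ratio was not tested. Of 12 measured skeletal muscle genes, 6 were higher and 3 lower. The fast myosin heavy chain genes Myh1 (-8.82 and -9.97) and Myh2 (-5.13 and -4.33) were lower in heart. Myh4, also a fast form, was at -0.03 and did not pass in limma (adjusted p = 0.706). Casq1, the skeletal calsequestrin gene, was higher at 2.77 ± 0.15, and Ckm had the highest mean of the list, 6.71. For 3 of the 12 genes the signal was thus higher in the pool than in the heart. The part of skeletal muscle genes in the Tmod4 ratio was not tested.

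The leiomodins parted in direction. Lmod2, the leiomodin of heart muscle, was at 7.25 on array 1 and 7.24 on array 2. This gave 7.24 ± 0.01, a 151-fold higher signal in heart (adjusted p = 0.0012), at rank 20 of all genes. Its arrays lay closer together than those of any other of the 10 genes, with a difference of -0.01 (array 2 minus array 1). On each array the ratio of Lmod2 lay slightly under that of Tmod1, by 0.69 and 0.78, which were larger than the SD of either gene.

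Lmod1, the leiomodin of smooth muscle, was the lowest of the 10 genes, at -1.01 on array 1 and -1.96 on array 2. Its mean of -1.49 ± 0.67 corresponds to a 2.80-fold lower signal in heart, with a 95% interval of the mean from -2.73 to -0.24. The adjusted p of 0.0483 lay just inside the threshold. It was 0.0538 with a robust estimate of the spread, 0.0537 when each gene was represented by its probe with the smallest array difference, and 0.0507 in the test of single probes. Over all alternatives the adjusted p of Lmod1 ran from 1.62e-13, after centring the arrays in a fit that ignores each gene's own spread, to 0.0538. The gap between arrays was larger than that of 97.7% of genes, and array 2 was the lower of the pair.

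Of 9 measured smooth muscle genes, 5 were lower and 2 higher in heart, beside 41.5% and 31.4% of all genes. The higher genes were those of the intermediate filament proteins desmin (Des, 4.79), which heart muscle also expresses, and synemin (Synm, 3.49 ± 0.04). Tagln, an actin-binding protein of smooth muscle and stromal cells, was at -4.96 ± 0.02 and the calponin gene Cnn1 at -4.52 ± 0.37. Myh11, the smooth muscle myosin heavy chain, was at 0.13 ± 0.05 and did not pass (adjusted p = 0.0933), and the part of these genes in the Lmod1 ratio was not tested. Array 2 also stood apart in genes of lung epithelium, whose median over 8 measured genes was 0.06 on array 1 and 3.74 on array 2. Sftpc, a surfactant protein gene, was at 0.84 and 6.68 and Sftpa1 at 0.56 and 6.51. None of the 8 passed limma's test at an adjusted p of 0.05, and 0 passed at an unadjusted p of 0.05. All of them but Nkx2-1 (0.37 on array 1 and 0.18 on array 2) were higher on array 2, by unlike amounts. Scgb1a1, for 1, was at -1.22 and 0.76. The part of the lung epithelium genes in the array difference of Lmod1 was not tested. The remaining leiomodin gene, Lmod3, was not analysed here.

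The Xin-repeat genes were both higher in heart. Xirp2 was at 9.14 on array 1 and 8.99 on array 2, the highest mean of the 10 genes (9.07 ± 0.11, 536-fold, adjusted p = 0.0012) and the second highest of all genes. Xirp1 was at 4.72 and 4.25, a mean of 4.49 ± 0.34 or 22.4-fold (adjusted p = 0.00257). The ratio of Xirp2 exceeded that of Xirp1 by 4.42 and 4.74 on the 2 arrays. Each gene was read by 1 probe, so that no second probe checks either value. The genes nearest to Xirp2 over the 2 arrays, by mean absolute difference and outside the 10, were Asb11 (0.17 away, mean 8.92), Nppb (0.21 away, mean 9.15) and Tesc (1.06 away, mean 8.01). The genes nearest to Lmod1, at the other end of the set, were Erlin1 (0.03 away), Rhobtb3 (0.05 away) and Diras2 (0.07 away). Likeness over 2 arrays in a single contrast is a description of these ratios only.

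**Figure D2:**
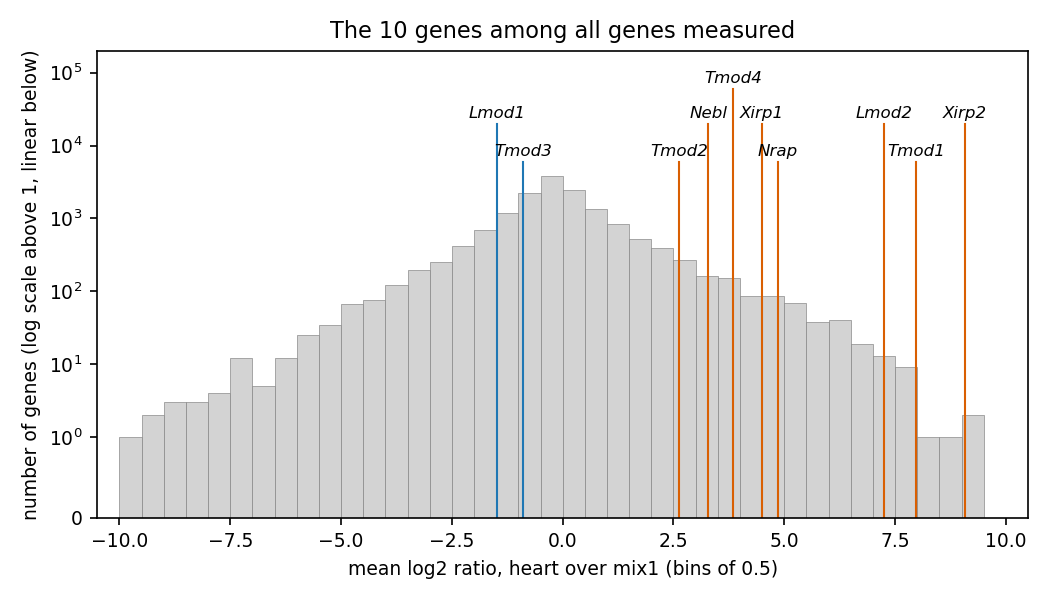
Number of genes (vertical axis, log scale above 1 and linear below) in bins of the mean log2 ratio of heart over mix1 (horizontal axis), for all 15613 genes, with a line at the mean of each of the 10 genes. Xirp2 (9.07), Tmod1 (7.97) and Lmod2 (7.24) lie in the sparse upper tail, while Lmod1 (-1.49) and Tmod3 (-0.88) lie within the bulk of the distribution.

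RefSeq promoter sequences of the GRCr8 build, 250 bases before to 50 bases after each gene's start, were held for 8 of the 10 genes. Lmod1 and Nrap were not matched. The windows were searched on both strands for the MEF2 box and the CArG box of serum response factor, which are bound by factors known from muscle gene control. They were also searched for the TATA-type element TATAAA, the GATA-factor core GATAA, the TEAD-type element CATTCC and the E-box CANNTG. Matches in the 8 genes were counted per gene, over any of its windows, while the shares of all promoters were counted per window. The MEF2 box stood in windows of 2 of the 8 genes, Xirp1 and Xirp2, and in 3.29% of all 33469 promoters of this length. The CArG box stood in the window of 1 gene, Nebl, and in 1.64% of all promoters. The GATA-factor core was found for Tmod2 and Xirp1 (26.5% of all promoters) and the E-box for all 8 genes (72.1%). The TATA-type and TEAD-type elements were found for 0 of 8 (14.2% of all promoters each). Xirp1 had 3 windows for different starts, and the box stood in the 2 that overlap, with its first base at -90 or -82 from the start. The window of Nebl belongs to 1 listed start of a long gene with several transcripts, and which start the heart uses was not analysed here. A MEF2 box can hold or overlap TATA-like letters, and a match is a description of the letters in this window and not a site.

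Windows of 4 genes are shown in lower case, with a MEF2 or CArG box in capitals. Those of Xirp2 (chr3:72533936-72534235, plus strand) and Xirp1 (chr8:128634962-128635261, minus strand) show the MEF2 box. Its first base lies at -74 in Xirp2 and -82 in Xirp1 from the start, and at -90 in the overlapping Xirp1 window not shown. That of Nebl (chr17:85135247-85135546, minus strand) shows the CArG box, first base at -177. That of Tmod1 (chr5:65111812-65112111, plus strand) is shown as a window that held neither box. Its GC content was 73.7%, against a median of 51.7% over all promoters.
Xirp2: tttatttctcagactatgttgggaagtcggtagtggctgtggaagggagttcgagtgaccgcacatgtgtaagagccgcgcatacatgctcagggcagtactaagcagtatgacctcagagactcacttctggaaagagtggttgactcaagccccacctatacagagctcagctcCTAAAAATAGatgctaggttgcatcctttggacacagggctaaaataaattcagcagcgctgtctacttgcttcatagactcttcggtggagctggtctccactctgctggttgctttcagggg
Xirp1: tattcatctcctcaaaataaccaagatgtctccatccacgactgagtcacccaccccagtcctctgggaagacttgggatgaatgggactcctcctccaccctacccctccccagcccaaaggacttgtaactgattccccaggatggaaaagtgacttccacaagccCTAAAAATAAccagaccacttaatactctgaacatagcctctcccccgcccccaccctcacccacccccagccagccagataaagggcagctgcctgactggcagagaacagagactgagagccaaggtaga
Nebl: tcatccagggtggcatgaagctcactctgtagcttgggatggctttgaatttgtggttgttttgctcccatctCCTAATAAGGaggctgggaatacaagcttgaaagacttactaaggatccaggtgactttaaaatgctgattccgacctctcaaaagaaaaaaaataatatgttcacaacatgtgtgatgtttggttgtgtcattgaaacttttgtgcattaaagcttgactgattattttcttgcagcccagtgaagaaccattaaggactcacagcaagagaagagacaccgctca
Tmod1: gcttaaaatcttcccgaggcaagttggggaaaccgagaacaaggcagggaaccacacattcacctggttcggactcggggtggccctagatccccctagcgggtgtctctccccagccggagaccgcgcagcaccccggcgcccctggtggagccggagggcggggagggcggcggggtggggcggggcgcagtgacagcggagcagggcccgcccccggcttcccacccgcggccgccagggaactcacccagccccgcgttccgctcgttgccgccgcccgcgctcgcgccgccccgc
The windows of Xirp2 and Xirp1 had a GC content of 49.3% and 53.7%, and that of Nebl 41.0%. The mean ratios were 9.07 for Xirp2, 4.49 for Xirp1 and 7.97 for Tmod1. Lmod2, at 7.24, had neither box in its window, and a link between boxes and ratios was not tested.

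The nebulin-related genes were higher in heart, with a division between the probes of Nebl. Nrap was at 4.83 on array 1 and 4.87 on array 2, a mean of 4.85 ± 0.03 or 28.8-fold (adjusted p = 0.0012). Nebl, averaged over its 2 probes, was at 3.47 and 3.10, a mean of 3.28 ± 0.26 or 9.74-fold (adjusted p = 0.00283). The first Nebl probe, annotated to an Ensembl transcript, read 1.84 and 1.67 (mean 1.75, 3.37-fold). The second, annotated to a RefSeq transcript, read 5.10 and 4.52 (mean 4.81, 28.1-fold). The second probe exceeded the first by 3.27 and 2.85 on arrays 1 and 2, and both passed at the probe level. The average therefore stands for neither probe, and the order of Nrap and Nebl rests on which is used: the second Nebl probe lay above Nrap on array 1 and below it on array 2. Nebl gives rise to nebulette and to the shorter LIM-nebulette (Lasp-2). Which transcripts each probe reads was not analysed here.

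**Figure D3:**
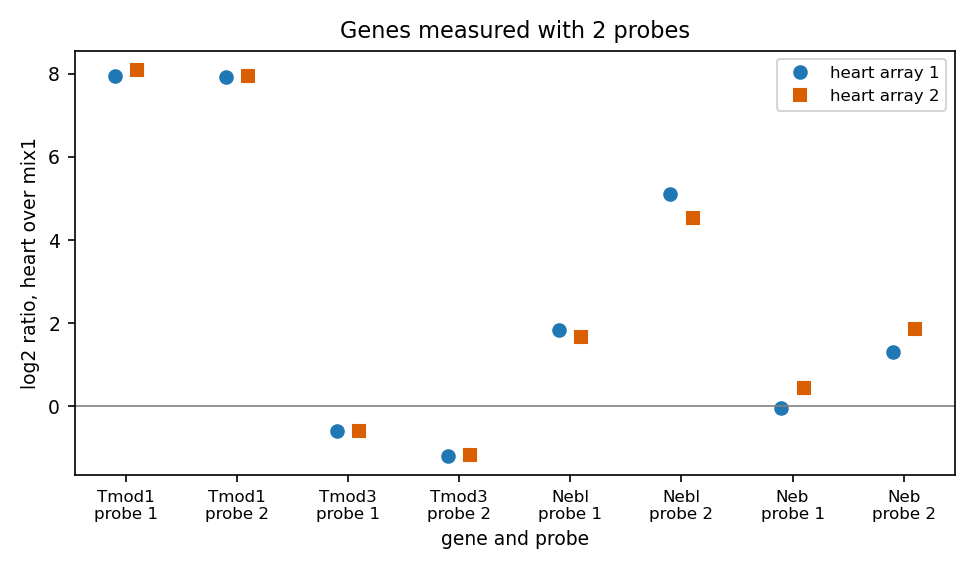
Log2 ratio of heart over mix1 (vertical axis) for each probe of Tmod1, Tmod3 and Nebl and of nebulin (Neb) (horizontal axis), with array 1 as circles and array 2 as squares. The second Tmod1 probe lies -0.04 and -0.15 from the first on arrays 1 and 2, whereas the Nebl probes lie about 3.06 apart on average.

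Neb, the giant ruler-like protein of the skeletal muscle thin filament and a relative outside the 10 genes, was at 0.65 on array 1 and 1.16 on array 2 (0.90 ± 0.37, adjusted p = 0.0398). Its probes also parted. The first read -0.03 and 0.45, which did not pass (adjusted p = 0.367), and the second 1.32 and 1.87 (adjusted p = 0.0173). With the first probe in place of the mean, Neb did not pass (0.21, adjusted p = 0.361). Lasp1, the LIM and nebulin-repeat protein of non-muscle cells, was lower in heart at -2.24 ± 0.10.

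At the level of single probes, 12 of the 13 probes passed, 10 higher and 2 lower, against 65.1% of all 40012 probes, of which 31.5% were called higher and 33.7% lower. The probe that did not pass was that of Lmod1. The difference between arrays of the 10 genes did not run one way, with 4 genes higher and 6 lower on array 2. It exceeded the SD of that difference over all genes, 0.34, in 3 of them: Lmod1 (-0.95), Xirp1 (-0.47) and Nebl (-0.37). In size these gaps were larger than those of 97.7%, 91.3% and 88.0% of all genes, in that order. The gaps of Xirp1 and Nebl were small beside their means.

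Partners of these proteins went both ways, as did all genes, of which 31.4% were called higher and 41.5% lower. The thin filament core had 15 measured genes with a median of 1.50, and 9 of them were higher and 6 lower in heart. Those of cardiac troponin had the largest ratios, Tnnc1 at 7.23 and Tnni3 at 6.79. The tropomyosin gene Tpm2 at -4.82 and the cytoplasmic actin gene Actg1 at -3.61 had the lowest. Tmod1 and Lmod2 thus lay with or above the cardiac troponins, and Tmod3 among the isoforms that were lower in heart, though less low than all of these but Tpm3 (-0.54). Acta1, Acta2 and Tnnc2 were not analysed here.

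Among 21 measured genes acting on filament ends and turnover, whose median was -1.22, 13 were lower and 8 higher in heart. Diaph1, a formin that elongates barbed ends, was at -3.66 ± 0.28 and Twf1, a monomer-binding twinfilin, at -2.70. The highest were Fhod3, the formin of cardiac myofibrils, at 5.77 ± 0.32 and the cyclase-associated protein gene Cap2 at 5.16 ± 0.02. The subunits of CapZ, which caps the barbed end opposite to tropomodulin, were chosen after their values were seen: Capza1 was at -2.50 ± 0.25, Capzb at -1.17 ± 0.01 and Capza2 at 0.54 ± 0.02. Capzb gives rise to isoforms that this probe was not shown to separate.

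Of 18 measured genes of the nebulin family and of proteins that bind Xin, Nrap or nebulette, 10 were higher, 7 lower and 1, the talin gene Tln2 (-0.03, adjusted p = 0.557), did not pass. Csrp3, the muscle LIM protein, was at 6.06 ± 0.11 and Actn2, the sarcomeric alpha-actinin to which the nebulin-related proteins bind, at 5.95 ± 0.11. Vcl, the vinculin gene of adhesion sites in many cells, was at -1.86 ± 0.01. Among 9 measured regulators of muscle genes, whose median was 1.92, heart was higher for 7 and lower for 2. The cardiac transcription factor genes Hand2 and Nkx2-5 were the highest, at 4.45 ± 0.16 and 3.91 ± 0.14. Tead1 (-1.25) and Mef2d (-0.65) were lower. Against the same background of 72.9%, the called shares were 15 of 15, 21 of 21, 17 of 18 and 9 of 9 in the 4 lists. All 4 lists mixed both directions. The shares lower in the thin filament core and the nebulin and binding-partner list were near the 41.5% of all genes.

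**Figure D4:**
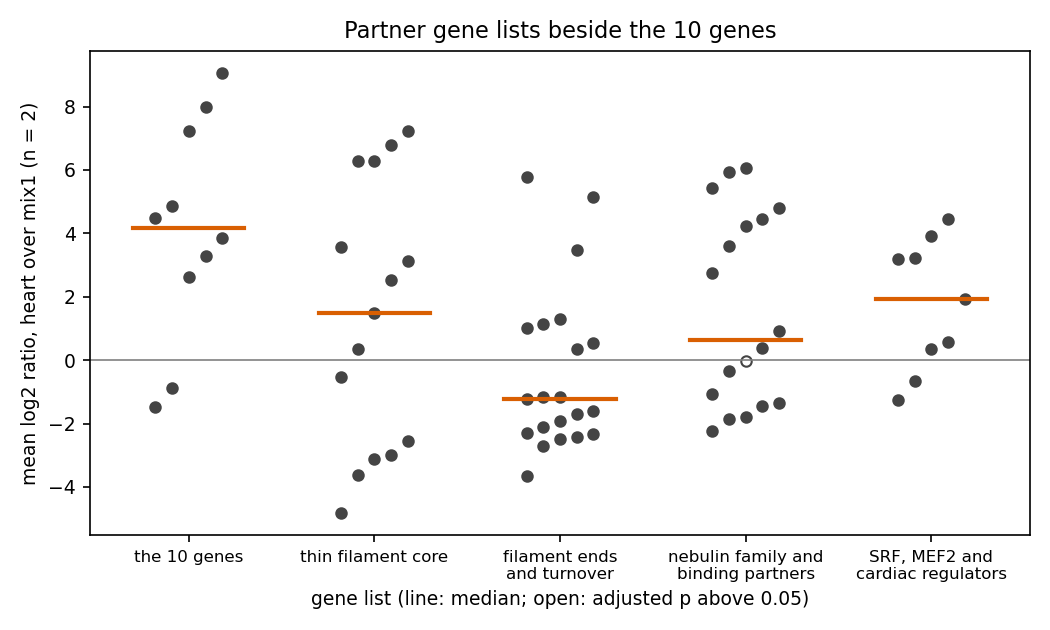
Mean log2 ratio of heart over mix1 (vertical axis, n = 2 arrays) of each gene in the set of 10 and in the 4 partner lists (horizontal axis); each point is a gene, filled where the adjusted p was below 0.05, and the line is the list's median. The medians are 4.16 for the 10 genes, 1.50 for the thin filament core, -1.22 for filament ends and turnover, 0.64 for the nebulin family and binding partners, and 1.92 for the regulators.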

How the data were processed

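Dual-colour array ratios of 2 heart samples against mix1 were used. Agilent Feature Extraction is the tool named in the submitters' processing notes; the sources used here give no version, background correction or dye normalization. The deposited numbers were taken as log2 ratios because the largest, read so, is 2191-fold, while as log10 it would exceed any scanner's range. Natural logs could not be told apart with certainty. Array medians were 0.01 and -0.14, and no centring was applied. Of 40012 probes, 20417 carried 1 gene symbol in the platform's annotation, 0 several and 19595 none. Accessions matched the GRCr8 RefSeq gene table for 16978 probes and updated older symbols. Probes were averaged per gene.

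Means were tested against 0 with limma 3.58.1 (R 4.3.3; lmFit with an intercept, eBayes, two-sided) over all genes, with Benjamini-Hochberg adjustment at 0.05. Mix1 counted as 1 control sample, so its spread is left out. Dyes were not swapped, and dye bias stays in the ratios. The code was tested on simulated data. The members and lists were chosen with earlier results of these data known. Genes named outside the 10 were the 2 most extreme called genes per direction in each partner list, the 3 nearest genes to the highest and lowest member, Lmod3 and Neb, and markers beside the results they touch. Outside that rule, and after their values were seen, the CapZ genes, Tpm3, Tln2, further markers and the ends of marker ranges were named. Protein sequences were not used here. Alternatives were centring, the choice of probe, annotated symbols, log base, direction, a robust spread and each array alone.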

Additional observations from a re-analysis of the deposited data

How the results depend on the processing

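Of the 10 genes, all but Lmod1 kept direction and call when arrays were centred on their medians, probes were chosen or summarised otherwise, symbols were left as annotated, or the spread was estimated robustly. Lmod1 missed the threshold in 2 of these. Several of these settings could change the ratios of the 10 genes little or not at all. No gene of the 10 had more than 2 probes, so the median of probes equals their mean. Probe choice cannot change the ratio of the 7 genes with 1 probe. The 10 genes had the same probes under annotated and updated symbols. Centring shifted the gene means by 0.06. With the sign turned, the ratios would be -7.97 for Tmod1, -2.62 for Tmod2, 0.88 for Tmod3, -3.84 for Tmod4, 1.49 for Lmod1, -7.24 for Lmod2, -4.49 for Xirp1, -9.07 for Xirp2, -3.28 for Nebl and -4.85 for Nrap. Read as natural logs, Tmod1 would be at 11.5 and Tmod3 at -1.28 on the log2 scale, with the same p. With the probe of smallest array difference, Nebl fell to 1.75 and Tmod3 moved to -0.59. The difference Tmod1 minus Tmod3 was then 8.52, Tmod1 minus Tmod4 4.08, Tmod2 minus Tmod3 3.21, and Nrap minus Nebl 3.10 in place of 1.57. After centring, Tln2 turned to 0.030 without passing, Rhobtb3 and Diras2 passed, and 6 of 8 lung epithelium genes passed. That fit had infinite prior degrees of freedom and ignores each gene's own spread. With the probe of smallest array difference, Myh11 passed at 0.70. Each array alone left the sign of the 10 genes in place, which restates that both arrays gave the same sign. No test was possible on 1 array. No paired analysis was possible because both samples belong to 1 group.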
